A study of Mus musculus with 5 samples.

Results

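Chemokines and their receptors were measured in the colon of mouse fetuses labelled HNF4 null or HNF4 control, by 1 array per embryo. HNF4 is a nuclear receptor of the gut epithelium. Members were all array probe sets annotated to a single gene symbol of the Ccl, Cxcl, Ccr or Cxcr series, together with Xcl1, Xcr1, Cx3cl1, Pf4 and Ppbp, which gave 66 of the 22626 probe sets tested and 50 of 12393 genes. They comprised 18 CC ligand genes, 14 CXC ligand genes, 2 genes of the XC and CX3C ligands, 10 CC receptor genes and 6 CXC or XC receptor genes. A further 4 probe sets, annotated to several chemokine symbols at once, were left out.

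All embryos were at stage E18.5 and carried the FoxA3Cre transgene, whose name is that of an endodermal transcription factor gene. The null group was 3 embryos (null_59, null_60 and null_426) of genotype HNF4LoxP/LoxP FoxA3Cre, and the control group was 2 embryos (CONTROL_406 and CONTROL_421) of genotype HNF4LoxP/+ FoxA3Cre. The controls therefore had 1 floxed allele and the same Cre, so no embryo without Cre or without a floxed allele was compared. Whether the floxed allele of the controls was deleted was not analysed here. RNA of a whole colon holds epithelium, muscle, connective tissue, vessels, nerves and blood cells, whereas Foxa3 is, as background, a gene of the endoderm, from which only the epithelium derives. In such bulk RNA, fewer cells of a type and less RNA per cell cannot be told apart. Epithelial Epcam read 1572, 1619 and 1259 in the null arrays and 2342 and 2565 in the controls, and smooth muscle Tagln read 3119, 2709.9 and 2786 in the null arrays and 2510.2 and 1628 in the controls, so markers of both main layers of the gut wall were bright. The labels say HNF4 without naming a paralog. Hnf4a was measured by 4 probe sets, of which 0 passed limma's threshold, with log2 differences of 0.14, -0.55, -0.35 and 0.19. Whether they read the deleted part was not analysed here, so they do not check the labels. The brightest read 649.8, 746 and 723 in the null arrays and 945 and 991 in the controls.

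Chemokines are small secreted proteins that direct the movement of leukocytes, and some of them also guide vessels, nerves and progenitor cells in the embryo. They are grouped by the spacing of their first cysteines into CC, CXC, XC and CX3C families, and they signal through receptors that cross the membrane several times and couple to inhibitory G proteins. In the gut, epithelial cells, macrophages and stromal cells secrete them.

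Promoters are shown for the gene with the largest difference by any probe set (Ccl6) and for its neighbour and close paralog Ccl9. They are also shown for the CXC ligand genes with the largest differences in each direction (Cxcl9 and Cxcl12). Each sequence is the 250 bases before the start site, read 5' to 3' on the gene's strand, from RefSeq promoter entries of build GRCm38.p6. Such entries were matched for 37 of the 50 genes. Capitals mark letters of 4 motifs searched on both strands, which could overlap. They were CAAAGTNCA for HNF4, GGGNNTTCC for NF-kB, CAGGAAG for ETS factors and TTCNNNGAA for STAT factors.
Ccl6, chr11:83593088-83593337, minus strand: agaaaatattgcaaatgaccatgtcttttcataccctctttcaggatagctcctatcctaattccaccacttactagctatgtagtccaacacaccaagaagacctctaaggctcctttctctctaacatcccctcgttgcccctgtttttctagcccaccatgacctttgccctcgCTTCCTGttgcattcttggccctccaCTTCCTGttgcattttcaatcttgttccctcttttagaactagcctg
Ccl9, chr11:83578637-83578886, minus strand: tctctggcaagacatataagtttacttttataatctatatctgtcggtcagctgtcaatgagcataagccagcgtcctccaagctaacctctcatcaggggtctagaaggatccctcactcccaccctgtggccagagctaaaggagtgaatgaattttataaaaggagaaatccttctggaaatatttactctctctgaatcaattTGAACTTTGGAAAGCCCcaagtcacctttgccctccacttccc
Cxcl9, chr5:92328080-92328329, minus strand: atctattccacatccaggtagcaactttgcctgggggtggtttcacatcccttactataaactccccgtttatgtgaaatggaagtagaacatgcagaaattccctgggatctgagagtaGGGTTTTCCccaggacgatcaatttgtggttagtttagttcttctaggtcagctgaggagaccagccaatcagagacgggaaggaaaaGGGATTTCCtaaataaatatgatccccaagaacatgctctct
Cxcl12, chr6:117168285-117168534, plus strand: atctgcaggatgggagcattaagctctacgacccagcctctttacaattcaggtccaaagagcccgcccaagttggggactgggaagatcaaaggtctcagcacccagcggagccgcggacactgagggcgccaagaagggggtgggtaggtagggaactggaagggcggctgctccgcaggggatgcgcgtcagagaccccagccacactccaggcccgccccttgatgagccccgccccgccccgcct

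The Ccl6 window held the ETS letters at 2 places, 73 and 47 bases before the start site. The Ccl9 window held HNF4 letters 43 bases before the start site, and NF-kB letters that overlapped them began 35 bases before it. The Cxcl9 window held NF-kB letters 130 and 42 bases before its start site, and the Cxcl12 window held none of the 4 motifs. A filter by chromosome was applied to the member entries only, not to all 32851. Over the 41 promoter entries of the members so kept, HNF4 letters were found in 2 (4.88%, Ccl9 and Ccr6), against 1.19% of all 32851 entries. NF-kB letters were found in 5 (12.2% against 4.98%), ETS letters in 9 (22.0% against 10.8%) and STAT letters in 4 (9.76% against 7.02%). The motifs were chosen with the values known, and a match of letters is a description, not a site of binding. Only the letters given were searched for each factor, so a window without them can still hold other forms of its site.

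No member passed the threshold of an adjusted p under 0.05 with limma, against 0.124% of all probe sets. The nearest was Ccl6, a chemokine gene of rodent myeloid cells, by its probe set 1417266_at. At an unadjusted p under 0.05, 7 of 66 probe sets differed (10.6%) against 7.15% of all probe sets. Of these, 4 were higher in null colons (Ccl11, Cxcl9, Cxcl15 and Ccr1l1), where the share of all probe sets was 2.82%, and 3 were lower (Ccl6, Ccl3 and Cxcl12), where it was 4.33%. On the normalised scale the groups did not overlap in 14 of 66 member probe sets, against 23.7% of all probe sets. The count at the unadjusted level was 4 without null_59 and 4 without CONTROL_406. Over the 5 fits that each left out 1 array, that level was met in 5 for Ccl6, in 4 each for Cxcl9 and Cxcl15, in 3 for Ccr1l1, in 2 for Ccl11, in 1 for Cxcl12 and in 0 for Ccl3. The median log2 difference of the members was 0.09, beside 0.02 for all probe sets, and it was -0.01 without null_426.

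**Figure D1:**
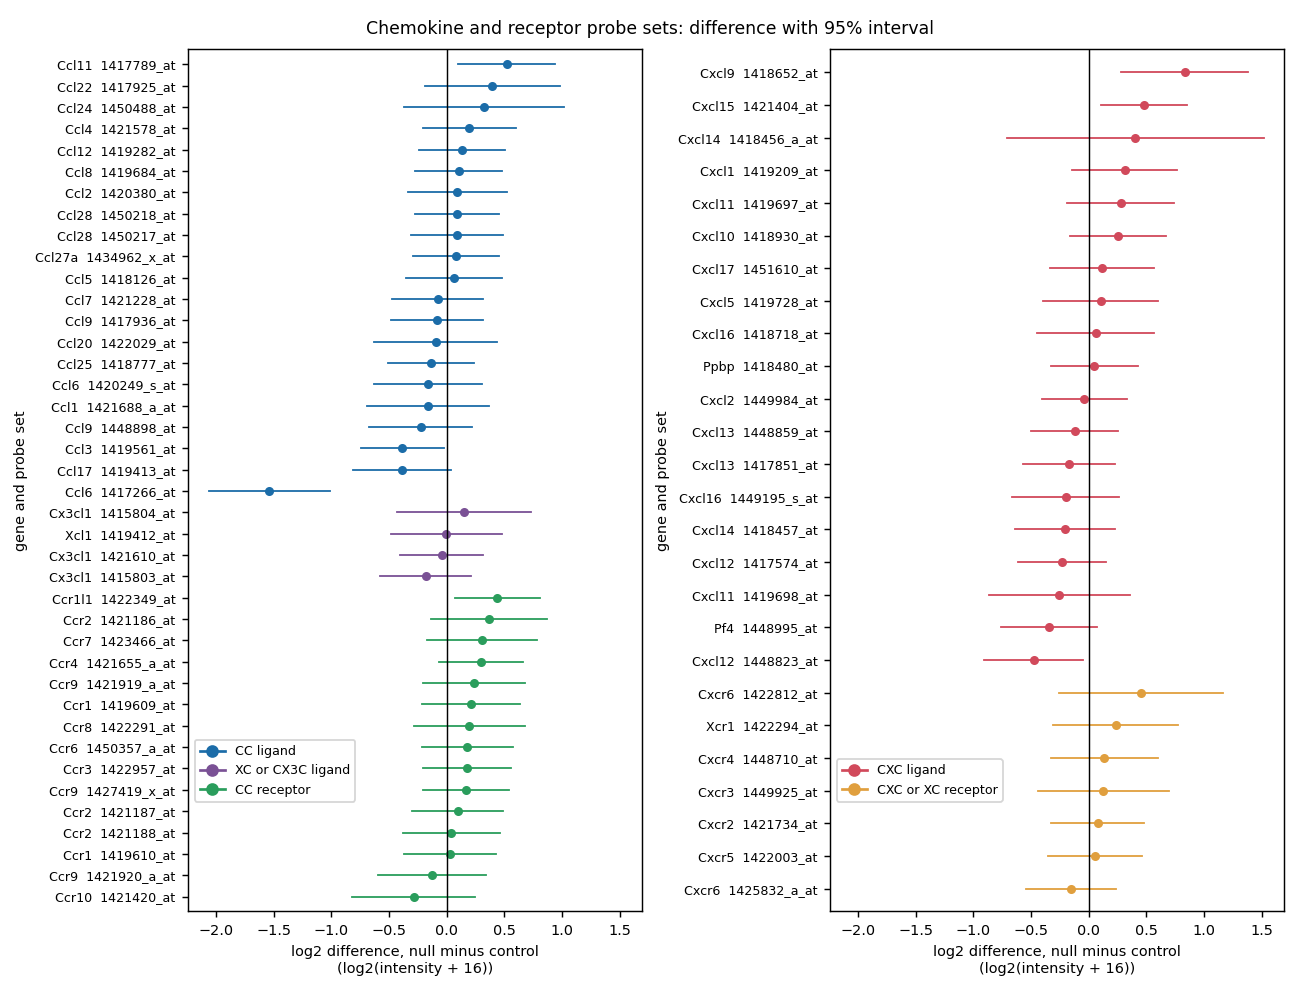
Log2 difference between null and control colons (x axis, null minus control, on the log2(intensity + 16) scale) for each of the 66 probe sets (y axis), with the 95% confidence interval of the limma fit as a line and the colour giving the family. Ccl6 by 1417266_at stands apart at -1.54, and the other points lie between -0.48 and 0.83.

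Of the 66 intervals, 61 lay within 1 of zero on the log2 scale, that is within 2-fold in intensity + 16. The exceptions were the first Ccl6 probe set, Cxcl9, Ccl24, Cxcl14 by 1418456_a_at and Cxcr6 by 1422812_at. The difference of 50 probe sets was under 0.3 in size. For these the array values are given below, without a separate difference. On this scale, to which 16 was added before the logarithm, the differences of dim probe sets are understated, and 39 of the 66 had a mean intensity under the median of the table, so much of the family was read in the lower part of the array's range. Probe sets whose names end in _s_at or _x_at can also bind related transcripts.

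Ccl6 by its probe set 1417266_at stood lowest in null relative to control colons among the members. The array values of 1417266_at were 83.8, 104 and 58.2 in the null arrays and 245 and 266 in the controls. All 3 null arrays lay below both controls, with means of 81.8 ± 22.7 (SD, n = 3) for the null and 256 ± 14.9 (SD, n = 2) for the control group. The log2 difference was -1.54 ± 0.23 (SE), which is 2.90-fold lower (95% interval 2.02 to 4.17, limma adjusted p = 0.0573). The call moved with the setting: its adjusted p was between 0.0115 and 0.0429 in 6 of 8 alternative settings, and between 0.0787 and 0.314 with any 1 array left out, the highest being without CONTROL_421, while its direction was the same in all 13. The second Ccl6 probe set, 1420249_s_at, was slightly the brighter, with a mean over all arrays of 159 beside 151. It read 142, 169 and 143 in the null arrays and 135.0 and 205 in the controls. These groups overlapped, and the log2 difference was -0.16 ± 0.21 (SE) (limma adjusted p = 0.880). The 2 probe sets of Ccl6 thus differed by 1.38 in their log2 differences, the largest gap among the 13 member genes with several probe sets, where the median gap was 0.33. The parts of the transcript that each probe set reads were not analysed here.

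**Figure D2:**
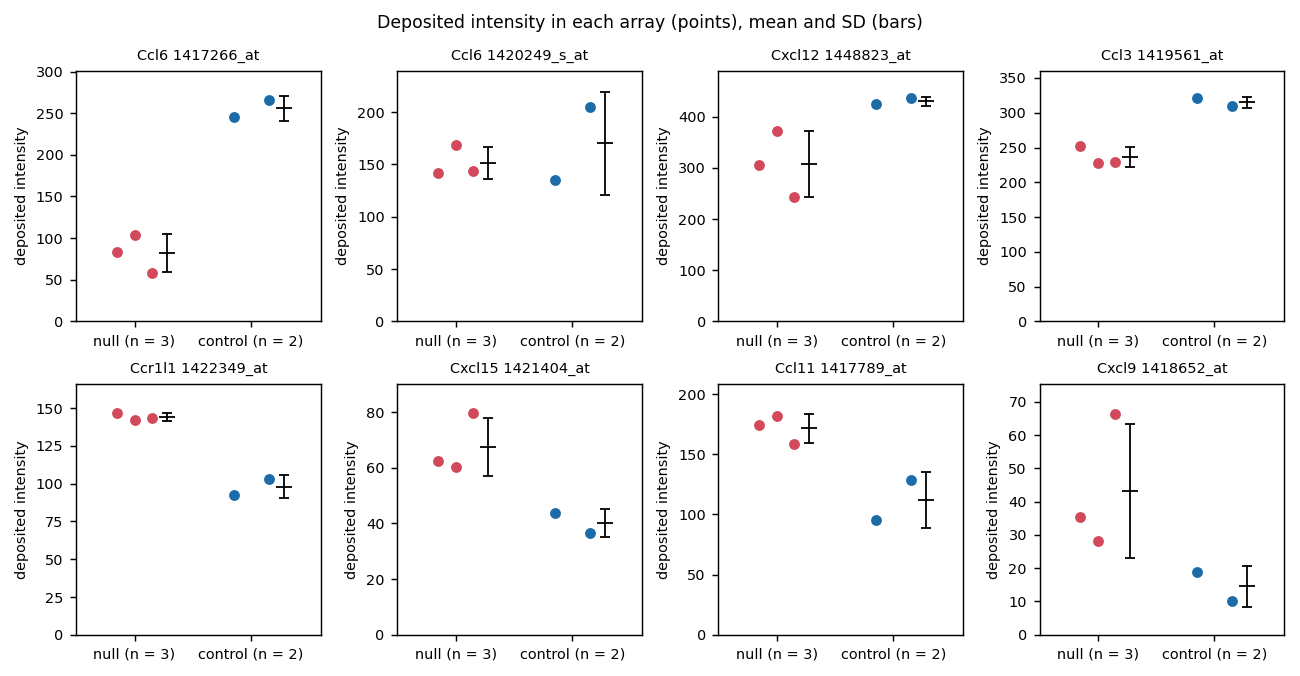
Deposited intensity (y axis, linear, from 0) in each null and control array (points) for the 7 probe sets with an unadjusted p under 0.05 and the second probe set of Ccl6, with group means and SD (black bars). The null arrays stand below both controls for Ccl6 by 1417266_at, Ccl3 and Cxcl12, and above both for Ccl11, Cxcl9, Cxcl15 and Ccr1l1.

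Other ligands of Ccr1, the receptor that Ccl6 shares with several chemokines of inflammation, did not follow 1 pattern. Ccl9, which lies beside Ccl6 in the same gene cluster, read 114, 152 and 143 in the null arrays and 136 and 144 in the controls by 1417936_at and 38.9, 35.97 and 48.2 in the null arrays and 62.05 and 33.3 in the controls by 1448898_at. Both sets of values overlapped between the groups. Ccl3, which encodes macrophage inflammatory protein 1 alpha, read 253, 228 and 229 in the null arrays and 321 and 309.6 in the controls, all null arrays below both controls, a difference of -0.38 ± 0.16 (SE) (limma adjusted p = 0.690). Without any 1 array its unadjusted limma p lay between 0.0598 and 0.113. Its neighbour Ccl4, the beta form, read 165, 146 and 197 in the null arrays and 139 and 145 in the controls. The null values of Ccl4 were above both controls as deposited, but the groups overlapped on the normalised scale. Ccl5, or RANTES, a T-cell chemokine, read 333, 276 and 366 in the null arrays and 314 and 313 in the controls, again overlapping. Ccr1 itself read 41.1, 61.9 and 67.1 in the null arrays and 45.04 and 39.6 in the controls by its brighter and 17.4, 26.4 and 29.7 in the null arrays and 25.5 and 16.98 in the controls by its dimmer probe set. Its values overlapped by both.

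Of 15 measured macrophage genes, 12 had a difference below 0 and 3 above, while limma's adjusted threshold was met by 0. At the unadjusted level 3 were lower, namely Ctss, a lysosomal protease, at -0.94 ± 0.25 (SE), the lipopolysaccharide co-receptor gene Cd14 at -0.61 ± 0.22 (SE) and the Fc receptor gene Fcgr3 at -0.60 ± 0.17 (SE). The intensity summed over the 15 genes ranged from 1911 to 2213 in null and from 2340 to 2430 in control colons. Without Ctss and Cd14 the sums were 1815, 1576 and 1612 in the null arrays and 1777 and 1719 in the controls, which overlap. These 2 genes had the lowest differences and were left out after the values were seen. Leaving them out narrows the gap by itself, so the overlap shows nothing about macrophage number. Cd14 read 242, 229.5 and 206 in the null arrays and 276 and 459 in the controls, highest in CONTROL_421. No gene of the list was at 0 or below in any array. Others of the list lay nearer 0, such as Csf1r at -0.07, Adgre1 at -0.04 and Ptprc, the gene of the leukocyte antigen CD45, at -0.09. The part of macrophage number or state in the Ccl6 values was not tested.

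**Figure D3:**
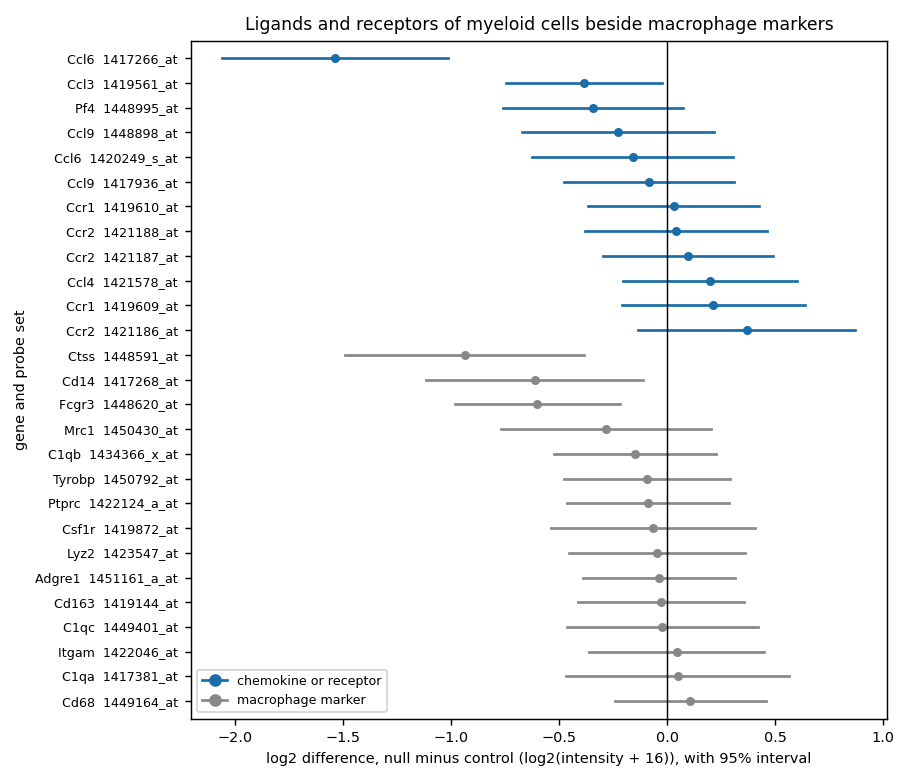
Log2 differences with 95% intervals (x axis, null minus control) for 12 probe sets of 7 ligand and receptor genes known from myeloid cells (blue) and for the 15 macrophage markers by their brightest probe set (grey). Ccl6 by 1417266_at lies at -1.54 and Ctss at -0.94, whereas Csf1r lies at -0.07 and Ccr2 by 1421186_at at 0.37.

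Monocyte-attracting ligands showed small differences. Ccl2, or monocyte chemoattractant protein 1, read 466, 387 and 501 in the null arrays and 414 and 449 in the controls. Ccl7 read 54.7, 45.98 and 69.9 in the null arrays and 57.2 and 54.6 in the controls, and Ccl8 read 221, 191 and 222 in the null arrays and 189 and 197 in the controls. Ccl12 read 49.4, 50.8 and 62.9 in the null arrays and 42.1 and 46.2 in the controls. The groups overlapped on the normalised scale for each of Ccl2, Ccl7, Ccl8 and Ccl12, although the deposited null values of Ccl12 were all above the controls. Ccr2, the receptor gene of Ccl2, Ccl7 and Ccl12, was read by 3 probe sets. The brightest, 1421186_at, read 419, 445 and 637 in the null arrays and 372 and 403 in the controls, all null arrays above both controls, a difference of 0.37 ± 0.22 (SE) (limma adjusted p = 0.771), which was 0.15 without null_426, the highest array, and 0.23 with array weights. Values of 1421187_at, at 106, 137 and 120.1 in the null arrays and 121 and 94.7 in the controls, overlapped, as did those of 1421188_at, at 27.6, 20.7 and 17.6 in the null arrays and 18.8 and 18.45 in the controls.

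Among ligands of eosinophils and T helper cells, Ccl11 stood higher in null colons. Ccl11 encodes eotaxin, which attracts eosinophils through Ccr3 and is made by gut stromal cells. Its probe set read 175, 182 and 158 in the null arrays and 95.4 and 128 in the controls, with means of 172 ± 12.1 (SD, n = 3) for the null and 112 ± 23.4 (SD, n = 2) for the control group. The null arrays lay above both controls, a difference of 0.52 ± 0.19 (SE) (95% interval 0.10 to 0.94, limma adjusted p = 0.624). Without CONTROL_406, the array with the lowest value, the difference was 0.30. Smooth muscle markers lay on the same side: 5 of 5 had a difference above 0, 2 of them at an unadjusted limma p under 0.05 (Myh11, 0.57, and Tagln, 0.56) and 0 at the adjusted threshold, with summed intensities of 11186 to 12473 in null and 9408 to 11390.3 in control colons, ranges that overlap. Their part in the Ccl11 values was not tested. The second eotaxin gene Ccl24 read 344, 248 and 568 in the null arrays and 301 and 290.0 in the controls, where null_426 was highest and the groups overlapped, and its difference of 0.32 ± 0.31 (SE) was -0.01 without that array. Ccr3 read 16.9, 16.9 and 24.5 in the null arrays and 13.3 and 13.7 in the controls, with the null values above the controls as deposited and the groups overlapping on the normalised scale.

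Ccl17 and Ccl22 both bind Ccr4 on T helper and regulatory T cells. Ccl17 read 51.4, 47.4 and 75.6 in the null arrays and 71.2 and 79.1 in the controls. In the deposited values null_426 lay above CONTROL_406, while on the normalised scale all null arrays lay below both controls, a difference of -0.39 ± 0.19 (SE) (limma adjusted p = 0.727), or -0.24 with a pseudocount of 64. Ccl22 read 237, 314 and 343 in the null arrays and 165 and 294 in the controls. The groups overlapped, and its difference of 0.40 ± 0.26 (SE) rested on CONTROL_406, the lowest array, being -0.02 without it. Ccr4 read 49.98, 46.9 and 62.6 in the null arrays and 39.2 and 33.9 in the controls, each null array above both controls. Ccl1, a ligand of Ccr8, read 55.2, 56.9 and 90.3 in the null arrays and 56.6 and 89.9 in the controls, and Ccr8 read 60.4, 42.7 and 76.05 in the null arrays and 40.2 and 50.9 in the controls. Both overlapped.

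Ccl25, Ccl28, Ccl20, Ccl27a and Cxcl17, which epithelia secrete, and the receptor genes Ccr9, Ccr10 and Ccr6 each differed by less than 0.3. Ccl25, which draws lymphocytes to the small intestine through Ccr9, read 55.2, 48.2 and 51.8 in the null arrays and 62.3 and 46.5 in the controls. Ccr9 was read by 3 probe sets, of which 1421920_a_at gave 115, 167 and 144 in the null arrays and 129 and 177 in the controls, 1421919_a_at gave 51.3, 45.1 and 65.1 in the null arrays and 33.4 and 46.3 in the controls and 1427419_x_at gave 58.7, 72.2 and 65.1 in the null arrays and 54.8 and 50.2 in the controls. The groups overlapped for Ccl25 and for 2 of these probe sets, and in 1427419_x_at the null arrays lay above both controls. Ccl28, a chemokine of colonic and glandular epithelium, read 261, 225 and 287 in the null arrays and 259 and 223 in the controls by 1450217_at and 22.7, 22.1 and 28.4 in the null arrays and 20.3 and 18.95 in the controls by 1450218_at. Its receptor gene Ccr10 read 42.6, 41.1 and 21.8 in the null arrays and 38.9 and 44.9 in the controls, overlapping between groups as did both probe sets of Ccl28 on the normalised scale. Ccl20, which the follicle epithelium makes to attract Ccr6-bearing cells, read 50.7, 24.96 and 54.99 in the null arrays and 42.4 and 40.7 in the controls, and Ccr6 read 204, 186 and 233 in the null arrays and 169.7 and 189 in the controls. Ccl27a, better known from skin, read 29.9, 24.4 and 29.5 in the null arrays and 23.2 and 22.8 in the controls. Cxcl17, a chemokine of mucosal surfaces, read 189.5, 168 and 214 in the null arrays and 143 and 205 in the controls. The groups overlapped for Ccl20, Ccr6, Ccl27a and Cxcl17 on the normalised scale.

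Cxcl14 and Cxcl16, made by epithelial and other cells, differed in sign between their own probe sets. Cxcl14 by 1418456_a_at read 185, 114 and 357 in the null arrays and 79.8 and 259.9 in the controls, with the highest null array above and the lowest control array below all others. Its difference of 0.40 ± 0.49 (SE) was -0.37 without CONTROL_406 and -0.02 without null_426. The other Cxcl14 probe set, 1418457_at, read 65.97, 69.1 and 49.3 in the null arrays and 71.3 and 64.5 in the controls, overlapping as deposited and with the null arrays below both controls on the normalised scale. Cxcl16, a membrane-anchored ligand, read 301, 248 and 356 in the null arrays and 244 and 343 in the controls by 1418718_at and 58.1, 91.5 and 67.4 in the null arrays and 92.9 and 67.1 in the controls by 1449195_s_at, with overlap in both. Its receptor gene Cxcr6 read 26.4, 14.2 and 49.9 in the null arrays and 9.07 and 20.9 in the controls by 1422812_at, a difference of 0.45 ± 0.32 (SE) (limma adjusted p = 0.789), and 26.8, 29.9 and 27.00 in the null arrays and 37.6 and 23.1 in the controls by 1425832_a_at. Neither probe set of Cxcr6 separated the groups, and the difference by 1422812_at was 0.08 without CONTROL_406, 0.19 without null_426, 0.73 without null_60 and 0.83 without CONTROL_421, and 0.82 and 0.20 with pseudocounts of 1 and 64.

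Cxcl12 read lower in null colons by both of its probe sets. It encodes the stromal ligand of Cxcr4, known for its part in homing of blood stem cells, in vessel growth and in gut vascularisation. The brighter probe set, 1448823_at, read 305, 372 and 243 in the null arrays and 424 and 436 in the controls, with means of 307 ± 64.6 (SD, n = 3) for the null and 429.9 ± 8.44 (SD, n = 2) for the control group. All null arrays lay below both controls, a difference of -0.48 ± 0.19 (SE) (95% interval -0.91 to -0.05, limma adjusted p = 0.668). With 1 array left out at a time, the difference lay between -0.59 and -0.34, and the unadjusted limma p was under 0.05 in 1 of 5 such fits, reaching 0.119. The dimmer probe set, 1417574_at, read 113, 129 and 105 in the null arrays and 136 and 130.1 in the controls, also with every null array below both controls, a difference of -0.24 ± 0.17 (SE) (limma adjusted p = 0.792). Cxcr4 read 99.2, 86.6 and 69.9 in the null arrays and 85.4 and 57.8 in the controls, with the groups overlapping. Ackr3, the atypical receptor that takes up Cxcl12, is not a member and read 56.2, 69.4 and 46.5 in the null arrays and 93.4 and 53.9 in the controls, also overlapping. Of 6 fibroblast markers 2 were above and 4 below 0, with summed intensities of 6330 to 8146 in null and 7523 to 8453 in control colons. All 7 markers of blood endothelium were above 0, with summed intensities of 1039 to 1278 in null and 978 to 981 in control colons, and 0 of either list passed limma's threshold or an unadjusted p under 0.05. The part of these cells in the Cxcl12 values was not tested.

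The interferon-induced ligands Cxcl9, Cxcl10 and Cxcl11 share the receptor Cxcr3 of activated T cells. Cxcl9 read 35.4, 28.1 and 66.2 in the null arrays and 18.9 and 10.2 in the controls, every null array above both controls, at a mean under the median of the table. Its difference was 0.83 ± 0.24 (SE) (95% interval 0.28 to 1.38, limma adjusted p = 0.536), the largest above 0 among the members. The size depends on the pseudocount, being 1.31 with a pseudocount of 1 and 0.40 with 64. Cxcl10 read 187, 179.6 and 233 in the null arrays and 149 and 177 in the controls, the null values being above both controls as deposited and the groups overlapping on the normalised scale. Cxcl11 by 1419697_at read 44.5, 69.9 and 73.7 in the null arrays and 53.9 and 35.7 in the controls. Its other probe set, 1419698_at, read 14.7 and 5.11 in null_59 and null_60 and 7.67 and 11.5 in the controls, while null_426 held the deposited value -1436, the only one below 0 among the members, which was set to 0. Cxcr3 read 227, 277 and 325 in the null arrays and 190.2 and 329 in the controls, again overlapping. Of the genes upstream of these ligands, the interferon gamma receptor gene Ifngr1 read 286, 244 and 235 in the null arrays and 418 and 324 in the controls, a difference of -0.50 ± 0.18 (SE) (limma adjusted p = 0.633), Ifngr2 differed by -0.23, and the interferon gamma gene Ifng and its target Irf1 differed the other way, by 0.28 and 0.13. None of these 4 passed the adjusted threshold.

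The ligands that attract neutrophils had mean intensities under the median of the table. Cxcl1 read 19.7, 14.2 and 28.8 in the null arrays and 16.5 and 7.46 in the controls, a difference of 0.31 ± 0.20 (SE) (limma adjusted p = 0.780). It was 0.16 without CONTROL_421, 0.18 without null_426, and 0.59 and 0.13 with pseudocounts of 1 and 64. Cxcl2 read 13.4, 16.3 and 20.96 in the null arrays and 17.1 and 14.6 in the controls, and Cxcl5 read 8.45, 15.7 and 15.4 in the null arrays and 5.73 and 14.4 in the controls. Their receptor gene Cxcr2 read 34.04, 40.5 and 35.1 in the null arrays and 27.9 and 34.3 in the controls. Values of the 4 genes overlapped between the groups. Cxcl15, or lungkine, best known from lung epithelium, read 62.4, 60.4 and 79.6 in the null arrays and 43.8 and 36.7 in the controls, each null array above both controls, a difference of 0.48 ± 0.16 (SE) (95% interval 0.11 to 0.85, limma adjusted p = 0.612), or 0.28 with a pseudocount of 64. Of 8 neutrophil markers, 5 were above 0 and 3 below. By limma 0 passed the adjusted threshold and 2 were higher at an unadjusted p under 0.05 (Mpo, 0.47, and S100a8, 0.46). Summed intensities of the 8 markers were 1155 to 1325 in null and 1142 to 1149 in control colons. Mpo alone read 208, 201 and 243 in the null arrays and 154 and 145 in the controls, a wider gap than that between the sums. The part of neutrophils in these values was not tested.

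Pf4 and Ppbp encode chemokines stored in platelet granules, and Pf4 is also made by some tissue macrophages. Pf4 read 210.1, 159 and 161 in the null arrays and 218 and 230.3 in the controls, all null arrays below both controls, a difference of -0.34 ± 0.18 (SE) (limma adjusted p = 0.748), or -0.18 with array weights. Ppbp read 51.4, 44.5 and 61.3 in the null arrays and 50.1 and 41.6 in the controls, with the groups overlapping. Of 7 platelet and megakaryocyte markers, 5 were above 0 and 2 below, 0 passed limma's threshold and 1 was higher at an unadjusted p under 0.05 (Gp1bb, 0.54). Their summed intensity was 929 to 1194 in null and 931 to 943 in control colons. These sums overlapped between the groups. The part of platelets or macrophages in the Pf4 values was not tested.

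Lymphoid chemokines and their receptors overlapped between the groups. Cxcl13, which organises B-cell follicles and lymphoid tissue, read 254, 295 and 307 in the null arrays and 298 and 356 in the controls by 1417851_at and 186, 175 and 209 in the null arrays and 196 and 216 in the controls by 1448859_at. Its receptor gene Cxcr5 read 39.3, 41.4 and 51.6 in the null arrays and 33.2 and 43.6 in the controls. Ccr7, the receptor that brings cells into lymph nodes, read 42.1, 41.5 and 31.1 in the null arrays and 35.2 and 16.6 in the controls, a difference of 0.31 ± 0.21 (SE) (limma adjusted p = 0.787). The Ccr7 difference was 0.05 without CONTROL_421 and 0.57 without CONTROL_406, and 0.46 and 0.15 with pseudocounts of 1 and 64. Xcl1, a ligand of cytotoxic lymphocytes, read 1528, 1252 and 1773 in the null arrays and 1549 and 1626 in the controls, with the control values inside the null range. Its receptor gene Xcr1, a marker of cross-presenting dendritic cells, read 81.7, 73.7 and 133 in the null arrays and 62.5 and 86.3 in the controls. The groups overlapped for each of these 5 genes. Of 10 lymphocyte markers 1 was lower at an unadjusted limma p under 0.05 (Cd4, -0.66), and of 7 dendritic cell markers 1 was higher (Zbtb46, 0.50), with 0 past the adjusted threshold in either list. Summed intensities were 1405 to 1728 in null and 1524 to 1652 in control colons for lymphocyte markers, and 810 to 1080 and 754 to 930.0 for dendritic cell markers. The dendritic list holds Xcr1, itself a member. Without it the sums were 865, 736 and 947 in the null arrays and 691 and 844 in the controls. Intensities of different probe sets are not a measure of relative transcript number, so a bright probe set such as that of Xcl1 shows nothing about its abundance beside other members.

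Cx3cl1, the membrane-bound chemokine of epithelium, endothelium and neurons, was read by 3 probe sets. Its values were 135.0, 133 and 108 in the null arrays and 136 and 142 in the controls by 1415803_at, 185, 137 and 254 in the null arrays and 204 and 133 in the controls by 1415804_at and 141, 158 and 164 in the null arrays and 157 and 154 in the controls by 1421610_at. On the normalised scale the groups overlapped in all 3. As deposited, the null values of 1415803_at were all below the controls, the nearest by less than 1. The receptor Cx3cr1 of tissue macrophages, which is not a member, read 81.9, 76.96 and 82.9 in the null arrays and 82.9 and 105 in the controls, a difference of -0.24 ± 0.17 (SE) (limma adjusted p = 0.793).

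Most receptor probe sets had a difference above 0. Of 22 receptor probe sets, 19 had a difference above 0 (86.4%), beside 22 of 44 ligand probe sets and 52.9% of all probe sets, and the receptors above 0 numbered from 15 to 19 in the alternatives that kept all 22. The median difference was 0.17 for receptors and 0.02 for ligands. Only 4 receptor probe sets had a mean intensity at or above the median of the table, and 3 of these were above 0. No receptor met the adjusted limma threshold. With an unadjusted p under 0.05 there was 1 of 22 (4.55%), below the 7.15% of all probe sets, and the groups did not overlap in 4 (18.2%), below the 23.7% of all probe sets. The 1 at the unadjusted level was Ccr1l1, a gene closely related to Ccr1 and next to it, at 147, 142 and 144 in the null arrays and 92.8 and 103 in the controls. All null arrays of Ccr1l1 lay above both controls, a difference of 0.44 ± 0.16 (SE) (95% interval 0.08 to 0.81, limma adjusted p = 0.642). How far its probe set separates it from Ccr1 was not analysed here.

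**Figure D4:**
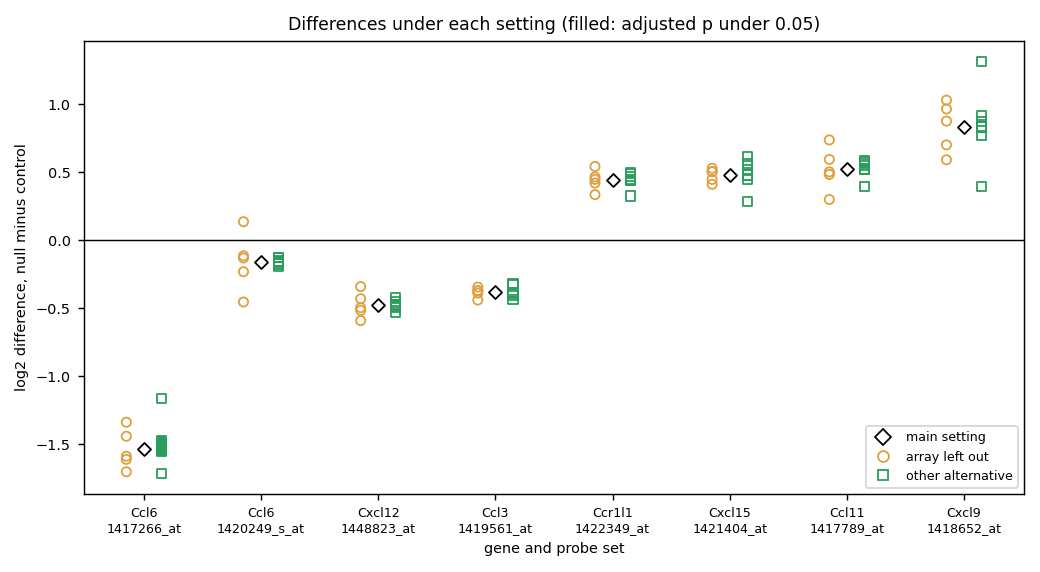
Log2 difference (y axis, null minus control) of 8 probe sets (x axis) in the main setting (diamonds), with each array left out in turn (circles) and under the other alternatives (squares), where a filled symbol has an adjusted p under 0.05. The first Ccl6 probe set lies between -1.72 and -1.17 throughout and is the only one with filled symbols.

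Genes that act with the chemokines were read from 4 lists, with 72 genes and 113 probe sets in all. By limma, 0 of the 113 passed the adjusted threshold, where the share of all probe sets was 0.124%. At an unadjusted p under 0.05 there were 11 (9.73%), near the 7.15% of all probe sets, of which 5 were higher and 6 lower, where the shares of all probe sets were 2.82% and 4.33%. Of 9 atypical and related receptor genes (Ackr1, Ackr2, Ackr3, Ackr4 among them), 0 differed at the unadjusted level. Of 23 genes that couple receptors to the cell's machinery, 1 was lower by its brightest probe set, the phospholipase gene Plcb3, which read 277, 322 and 222 in the null arrays and 431 and 473 in the controls, a difference of -0.69 ± 0.19 (SE) (limma adjusted p = 0.481). The null arrays of Plcb3 lay below both controls. Of 12 genes that bind, cleave or present chemokines, 2 were higher, the gelatinase gene Mmp9 (0.57) and the chemokine-like cytokine gene Mif (0.48), and 1 lower, Tnfaip6 (-0.48), whose product binds chemokines and hyaluronan. Of 28 genes of cytokines, receptors and transcription factors that induce chemokines, 1 was higher, Il6 (0.56), and 1 lower, Ifngr1. Limma's adjusted p for the 6 ranged between 0.481 and 0.695.

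The marker lists of mast cells, erythroid cells, lymphatic endothelium, epithelium, enteric neurons and mesothelium were read in the same way. Mast cell markers were above 0 in 7 of 8 genes, with summed intensities of 814 to 1101 in null and 723 to 730.3 in control colons, and 1 (Fcer1a, 0.51) had an unadjusted limma p under 0.05. Epithelial markers, each by its brightest probe set, were below 0 in 5 of 8 genes, with summed intensities of 15629.7 to 18494 in null and 17998 to 20036 in control colons and 2 lower at that level (Epcam, -0.66, and Vil1, -0.74). Of 5 lymphatic markers 1 passed the adjusted threshold, Lyve1, a hyaluronan-binding protein gene that certain macrophages also express, at -1.83 ± 0.24 (SE) (limma adjusted p = 0.0271). The other lymphatic markers did not pass and lay on both sides of 0, with Prox1 at 0.34, Reln at 0.13, Flt4 at 0.01 and Pdpn at -0.15. Of 3 mesothelial markers 1 was higher at the unadjusted level (Wt1, 0.44). The 4 erythroid and 4 enteric neuron genes held none at either level.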

How the data were processed

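RNA of 5 colons was read on 1 expression array each. The deposited values are linear intensities, 1 per probe set; how the authors summarised probes, subtracted background and scaled arrays is not given in the sources used here. Array medians ran from 123.7 to 135.2, and the number of arrays limits the precision. Of 22690 probe sets, 64 array controls were left out and 22626 tested, with no filter on low values. Values below 0 were set to 0, 16 was added, and log2 values were quantile normalised and fitted with limma 3.58.1 in R 4.3.3, two-sided, with Benjamini-Hochberg adjustment over all probe sets. A log2 difference is null minus control, with its standard error and 95% interval from the fit. In 10 simulations with 200 changed probe sets each, the adjusted threshold recovered 45.1% of 2-fold and 97.7% of 4-fold changes on average. The mean share of false calls was 5.41%. More of the simulated 2-fold changes were thus missed than found. The changes were added on the log2(intensity + 16) scale at randomly chosen probe sets. For dim probe sets, whose differences are understated on that scale, recovery of the same fold in intensity would be lower. The labels give an embryo number, genotype and stage but no litter or batch, so a difference in these between the groups would go unseen. The p-values rest on the spread between embryos within the groups, which limma moderates with that of all probe sets.

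Probe sets were named by the platform annotation of 2016, and all 66 members matched RefSeq by gene ID. The members and all lists were chosen with earlier results of these data known. Every member is accounted for, and array values are given for members at an unadjusted p under 0.05, for the 12 brightest genes, for genes with several probe sets and for ligand and receptor partners; values of the other members are given too. For members, a log2 difference is printed from 0.3, a limit set after the values were seen, and for the second probe sets of Ccl6 and Cxcl12. Genes that are not members have no such limit. List genes are given by their brightest probe set. Alternatives changed the scaling, the pseudocount, the filter on dim probe sets, the variance prior, the array weights, the probe sets counted per gene and the arrays included.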

Additional observations from a re-analysis of the deposited data

How the results depend on the processing

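The number of members past the adjusted threshold was 0, and 1 (the first Ccl6 probe set) with the table as deposited, median centring, dim probe sets removed, an intensity trend with or without the robust option, and array weights. It was 0 with each array left out. The number at an unadjusted p under 0.05 was 7, 4 with dim probe sets removed, where 27 members remained to be tested, and 4 to 7 with 1 array left out. For genes that act with chemokines, whose alternatives were chosen after seeing the data, that number was 11, and 6 to 13 with 1 array left out, being 6 without null_59. With 1 array left out the median of the members ran from -0.01 to 0.14. The difference turned for Ccl22 without CONTROL_406 (range with 1 array left out -0.016 to 0.80), Ccl24 without null_426 (-0.0087 to 0.61), Ccl6 by 1420249_s_at without CONTROL_421 (-0.45 to 0.14), and Cxcl14 by 1418456_a_at without null_426 (-0.016) and without CONTROL_406 (-0.37 to 1.17). The causes were not tested. Of the 66 probe sets, 36 had the same sign in every alternative. No paired analysis was possible because the embryo numbers in the labels are not shared between the groups.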
